A study of Mus musculus with 4 samples.

Results

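The 44 genes described here encode proteins that sense DNA damage and repair it. They were chosen by name and divided by textbook role into homologous recombination (15 genes), the Fanconi anemia pathway (7), end joining (11), mismatch repair (2) and checkpoint kinases with damage signalling (9). All 44 had a value among the 16857 genes of the expression table, and all 44 passed the filter on low values used for testing.

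RNA was sequenced in bulk from 4 mouse adenoma colonoid lines, which are epithelial structures grown in culture, with 1 library for each line and Apcmin named as the source of all 4. The 2 G2 lines, numbered 157 and 236, were labelled Apcnull with the LSL-mTERT allele homozygous. The 2 G0 lines, numbered 75 and 179, were labelled Apcnull with LSL-mTERT heterozygous, so the Apc alteration was shared by all 4 lines. The series text sets colonoids with low chromosomal instability (CIN) beside others with high CIN, without saying whether G2 or G0 is the high one. Nothing in the labels says that the lines came from separate animals, so p-values measure only the spread between these lines.

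Cells meet a broken or crosslinked chromosome with layered systems. The kinases Atm and Atr read the lesion and signal through Chek2 and Chek1. Breaks are rejoined either by end joining, which works throughout the cell cycle, or by homologous recombination, which copies the sister chromatid and is largely limited to cells in S phase and later. The Fanconi pathway unhooks interstrand crosslinks, and mismatch repair removes replication errors. A telomere that has lost its cap can be read as a break by the same machinery.

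The libraries held 16545429 to 17901744 counts, with 14119 to 14215 genes detected in each. Values are normalized counts, which are counts divided by the authors' size factor for the library. The label of the altered allele was checked with Tert, the catalytic subunit of telomerase, which stood at 0.0 and 1.0 normalized counts in the G2 lines and at 93.3 and 97.5 in the G0 lines. Transcripts of 4 Y-linked genes lay between 296.2 and 526.4 normalized counts in the G2 lines and at 0 in both G0 lines, so that the presence of a Y chromosome and the group cannot be told apart in any comparison below. The epithelial marker Epcam stood at 6844 and 8669 in G2 and at 5995 and 6994 in G0, and the intestinal factor Cdx2 fell to 270.3 and 186.7 in G2, against 2395 and 3199 in G0 (limma adjusted p = 0.00043). Of the 10 colon epithelium markers, Vil1 also fell, 4.42-fold (adjusted p = 0.0103), while Cdh1 rose 1.80-fold (adjusted p = 0.0171). Car1 rose 31.2-fold (limma adjusted p = 0.0264), with the G2 lines far apart at 4019 and 508.3, against 38.3 and 106.7 in G0. The other 6 did not pass. The leukocyte marker Ptprc was at 0 in all 4 libraries. The 6 fibroblast markers summed to 10.1 and 10.8 normalized counts in G2 and to 4.9 and 4.1 in G0, with Dcn and Pdgfra at 0 in all 4. Within that list Col3a1 rose, with 7.1 and 6.8 in G2 and 0 in both G0 lines (adjusted p = 0.0404). Of 9 leukocyte markers 4 were analysed here, summing to 1174 and 1921 in G2 and to 1130 and 2111 in G0, nearly all of it Cd68, and of these the macrophage receptor gene Csf1r rose, with 16.1 and 4.9 in G2 and 0 in both G0 lines (adjusted p = 0.0431). The 3 endothelial markers analysed summed to 4.0 and 2.9 in G2 and to 16.7 and 11.2 in G0. The part of these markers in the results was not tested.

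Between G2 and G0, 1 of the 44 repair genes passed the test, and the log2 fold changes lay between -0.70 and 0.50 with a median SE of 0.20. Fanca, of the Fanconi core complex, fell 1.57-fold in G2, and 0 genes rose. That is 2.3% of the repair genes, against 10.5% of all 13981 genes tested (4.56% lower and 5.93% higher) by limma with Benjamini-Hochberg adjustment over all of them and a threshold of 0.05. An unadjusted p under 0.05 was found for 9 of the 44 (20.5%), against 26.8% of all genes. Bard1, Fanca, Fanci and Polq were at least 1.5-fold lower in G2 (4 genes, 9.1%, against 13.1% of all genes), and 0 genes were at least 1.5-fold higher (against 16.7%). Among the 8939 genes with mean values within the range of the repair genes, 443 fell and 535 rose, 808 were at least 1.5-fold lower and 975 at least 1.5-fold higher.

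The direction was uneven. The median log2 fold change of G2 against G0 was -0.22 over the 44 genes, with an interquartile range of -0.40 to 0.01, against a median of 0.01 and a range of -0.30 to 0.36 over all genes tested. Both G2 lines lay below both G0 lines for 24 repair genes (54.5%), against 28.6% of all genes. Both G2 lines lay above both G0 lines for 6 repair genes (13.6%), against 29.2% of all genes. The groups overlapped for the other 14, against 5902 of all 13981 genes tested. The log2 fold change was below 0 for 31 repair genes, against 6843 of all genes tested. Of the 24, homologous recombination held 10, the Fanconi pathway 6, end joining 4, and mismatch repair and checkpoint signalling 2 each. Of the 6, end joining held 5 and homologous recombination held 1. These are descriptions of 4 libraries, and with 2 against 2 lines an exact two-sided permutation test of a single value cannot go below 0.333. In bulk RNA, fewer cells of a type and less RNA per cell cannot be told apart.

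**Figure D1:**
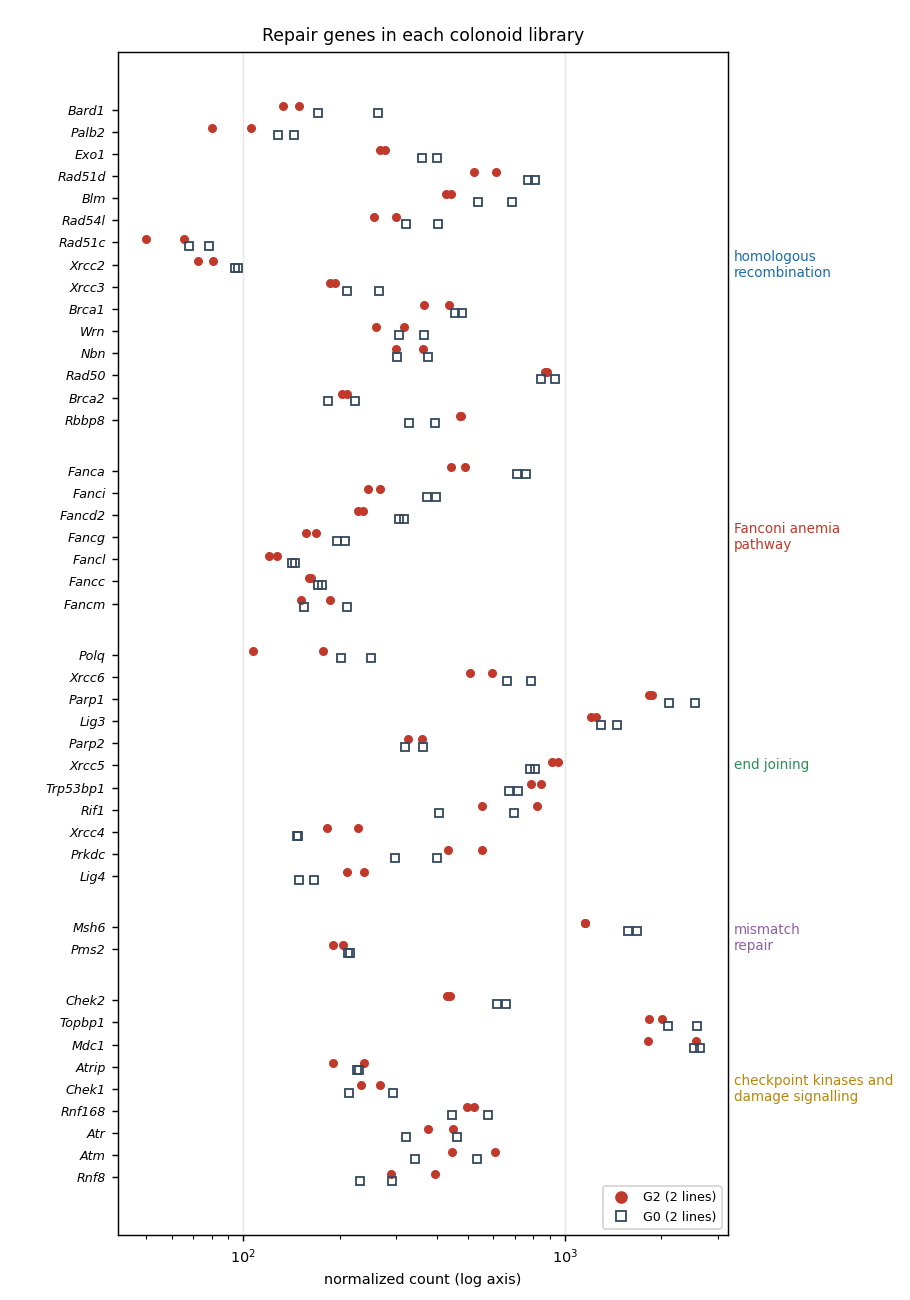
Normalized counts (log axis) of the 44 repair genes in each library, with filled circles for the 2 G2 lines and open squares for the 2 G0 lines, grouped by division and sorted by fold change. The circles lie left of both squares for 24 genes and right of both for 6, 5 of them in end joining.

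The promoters of 7 members are shown so that genes with values on either side can be compared. Fanca, Msh6, Chek2 and Fanci had the 4 smallest p-values and, like Polq, lower values in G2. Lig4 and Xrcc4, partners in the final ligation of end joining, had higher values in G2. The 7 were chosen after their values were seen. Each line gives the 60 bases before the RefSeq start on the gene's own strand (GRCm38.p6), with capitals marking the CCAAT box, the sequence bound by NF-Y, in either orientation. The stretches lie at chr8:123318577-123318636 (minus strand), chr17:87974990-87975049 (plus), chr5:110839923-110839982 (plus), chr7:79392278-79392337 (plus), chr16:37011726-37011785 (plus), chr8:9977681-9977740 (minus, 1 of 2 listed starts) and chr13:90089609-90089668 (minus).
Fanca: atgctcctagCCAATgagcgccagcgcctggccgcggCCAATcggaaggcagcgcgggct
Msh6: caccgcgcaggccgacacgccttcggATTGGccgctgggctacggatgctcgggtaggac
Chek2: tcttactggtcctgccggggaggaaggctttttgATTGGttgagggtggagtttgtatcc
Fanci: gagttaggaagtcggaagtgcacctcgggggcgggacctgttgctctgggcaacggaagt
Polq: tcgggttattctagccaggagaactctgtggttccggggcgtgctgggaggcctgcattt
Lig4: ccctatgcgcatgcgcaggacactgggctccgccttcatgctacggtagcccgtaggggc
Xrcc4: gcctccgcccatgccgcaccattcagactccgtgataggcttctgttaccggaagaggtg

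Fanca held 2 CCAAT boxes in this stretch, starting at -50 and -23 from the start, while Msh6 held 1 at -34 and Chek2 1 at -26. The stretches of Fanci and Polq held 0, as did those of Lig4 and Xrcc4. In the full windows of 250 bases before to 50 after a start, CCAAT in either orientation was found in 17 of the 34 members with a RefSeq promoter, against 42.7% of the 12975 genes of the expression table with one. Of these 17, Xrcc5, Atm and Rnf8 had a log2 fold change above 0 and the others had one below 0. Over all 44 members, with or without a match, 31 had one below 0. A link between a match and the direction was not tested. The E2F-type sequences TTTCGCGC or TTTGGCGC, on either strand, were found in 2 of the 34, Topbp1 and Rad51c (5.9%), against 1.5% of genes. TTTGAA, the core of the CHR element of late cell cycle genes, was found on either strand in 3 of the 34 (8.8%), against 15.3%. In the window of Rnf8 a CCAAT match and a TTTGAA match shared 1 base. A match is a description of letters and not a binding site.

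In the Fanconi pathway all 7 genes had a log2 fold change below 0 under each of 3 scalings of the libraries. The median was -0.30, and 1 of the 7 passed, against 10.5% of all genes. Over all genes tested, 6843 of 13981 had a log2 fold change below 0. Fancm turned above 0 when G2 line 236 or G0 line 75 was left out. Fanca, on chromosome 8 from 123268300 to 123318576, had 490.1 and 441.8 normalized counts in G2 and 758.0 and 709.0 in G0. The groups did not overlap, and each gap within a group was smaller than the gap between groups. The means were 466.0 ± 34.2 in G2 and 733.5 ± 34.6 in G0 (SD, n = 2 lines each), a log2 fold change of -0.65 (SE 0.15, limma adjusted p = 0.0415). With each of the 4 lines left out in turn, the log2 fold change of Fanca lay between -0.73 and -0.58. Such a fit leaves 1 line in a group, where almost no gene of the table passed. It therefore cannot decide whether the call of Fanca rests on 1 line. With all 4 lines, Fanca missed the threshold by limma when libraries were scaled to their totals (adjusted p = 0.0754). It also missed it with no filter on low values (0.108) and without the intensity trend (0.122).

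Fanci and Fancd2 form the clamp that the core complex ubiquitinates at a stalled fork. Fanci had 245.1 and 265.9 normalized counts in G2 and 396.7 and 373.8 in G0, a log2 fold change of -0.59 with an SE of 0.18 (limma adjusted p = 0.0831). Fancd2 had 236.0 and 227.7 in G2 and 306.4 and 315.9 in G0, a change of -0.42 with a 95% interval of -0.85 to 0.01 (adjusted p = 0.194). Neither passed, and in both genes the G2 lines lay below the G0 lines by more than the spread within either group. Fancg, another core subunit, had 157.3 and 169.1 in G2 and 195.4 and 208.2 in G0 (log2 fold change -0.30, SE 0.21, adjusted p = 0.389). The ubiquitin ligase subunit Fancl, at 120.0 and 127.1 in G2 and 145.3 and 142.2 in G0, and Fancc, at 160.4 and 163.2 in G2 and 175.8 and 170.7 in G0, did not overlap either, though by small margins. The translocase gene Fancm overlapped, with 186.6 and 151.5 in G2 and 211.1 and 154.4 in G0. Summed over the pathway, the G2 lines held 1595 and 1546 normalized counts and the G0 lines 2189 and 2074.

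In homologous recombination 13 of 15 genes had a log2 fold change below 0, against 6843 of all 13981 genes tested. The count was 11 when libraries were scaled to their totals, which turned Rad50 and Nbn. The median log2 fold change was -0.32, and 0 genes passed by limma, with 3 at an unadjusted p under 0.05 (against 26.8% of all genes). Those 3 were Rad51d, Exo1 and Blm. Rad51d, a paralog of the recombinase that coats single strands, had 612.2 and 522.0 normalized counts in G2 and 770.8 and 807.6 in G0 (log2 fold change -0.48, SE 0.16, adjusted p = 0.102). Exo1, a nuclease that lengthens the resected end, had 266.2 and 275.6 in G2 and 400.6 and 359.6 in G0 (-0.49, SE 0.18, adjusted p = 0.137). The helicase gene Blm had 426.6 and 442.8 in G2 and 688.3 and 536.3 in G0 (-0.48, SE 0.18, adjusted p = 0.143). In each of the 3 the lines of G2 lay below those of G0, and for Blm the G0 lines were far apart.

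The genes of the Brca axis had unequal differences. Bard1, the partner of Brca1 in a ubiquitin ligase, had 149.3 and 132.9 normalized counts in G2 and 263.1 and 170.7 in G0, with the spread between the G0 lines larger than the gap from the lower of them to G2. Palb2, which bridges Brca1 to Brca2, had 105.9 and 80.2 in G2 and 144.3 and 128.0 in G0 (log2 fold change -0.56, 95% interval -1.19 to 0.07). Brca1 itself had 435.7 and 365.6 in G2 and 455.6 and 478.4 in G0, a smaller difference (-0.23, interval -0.64 to 0.18). Brca2, which loads the recombinase, overlapped at 209.8 and 203.3 in G2 and 222.9 and 183.9 in G0 (0.03, interval -0.47 to 0.53). Per kilobase of exon, Palb2 therefore stood at 0.938 and 0.733 times the level of Brca2 in G2 and at 1.20 and 1.29 times in G0.

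The other recombinase paralogs and motors among the 44 genes had log2 fold changes below 0 and closer to 0 than Rad51d. Rad51c had 65.6 and 49.9 normalized counts in G2 and 67.8 and 78.2 in G0. Xrcc2 had 80.7 and 72.3 in G2 and 94.3 and 96.5 in G0. Xrcc3 had 192.6 and 185.7 in G2 and 210.1 and 265.1 in G0. The groups did not overlap in any of these 3 genes, and all 3 intervals included 0. Rad54l, the motor that helps the filament invade its template, had 255.1 and 298.1 in G2 and 404.5 and 322.0 in G0, also without overlap. Wrn, a helicase related to Blm, overlapped at 316.7 and 259.0 in G2 and 366.2 and 304.7 in G0.

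The proteins that first hold a broken end showed a different picture. Rad50 had 883.4 and 871.9 normalized counts in G2 and 931.8 and 844.1 in G0 (log2 fold change -0.02, 95% interval -0.35 to 0.32), and its complex partner Nbn had 363.1 and 299.1 in G2 and 376.1 and 300.7 in G0 (-0.03, interval -0.51 to 0.46). Both overlapped between groups. Rbbp8, which starts the resection that commits a break to recombination, was the 1 gene of this division with both G2 lines above both G0 lines. It had 477.0 and 472.1 in G2 and 394.7 and 327.1 in G0 (0.40, SE 0.18, adjusted p = 0.201) and did not pass.

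**Figure D2:**
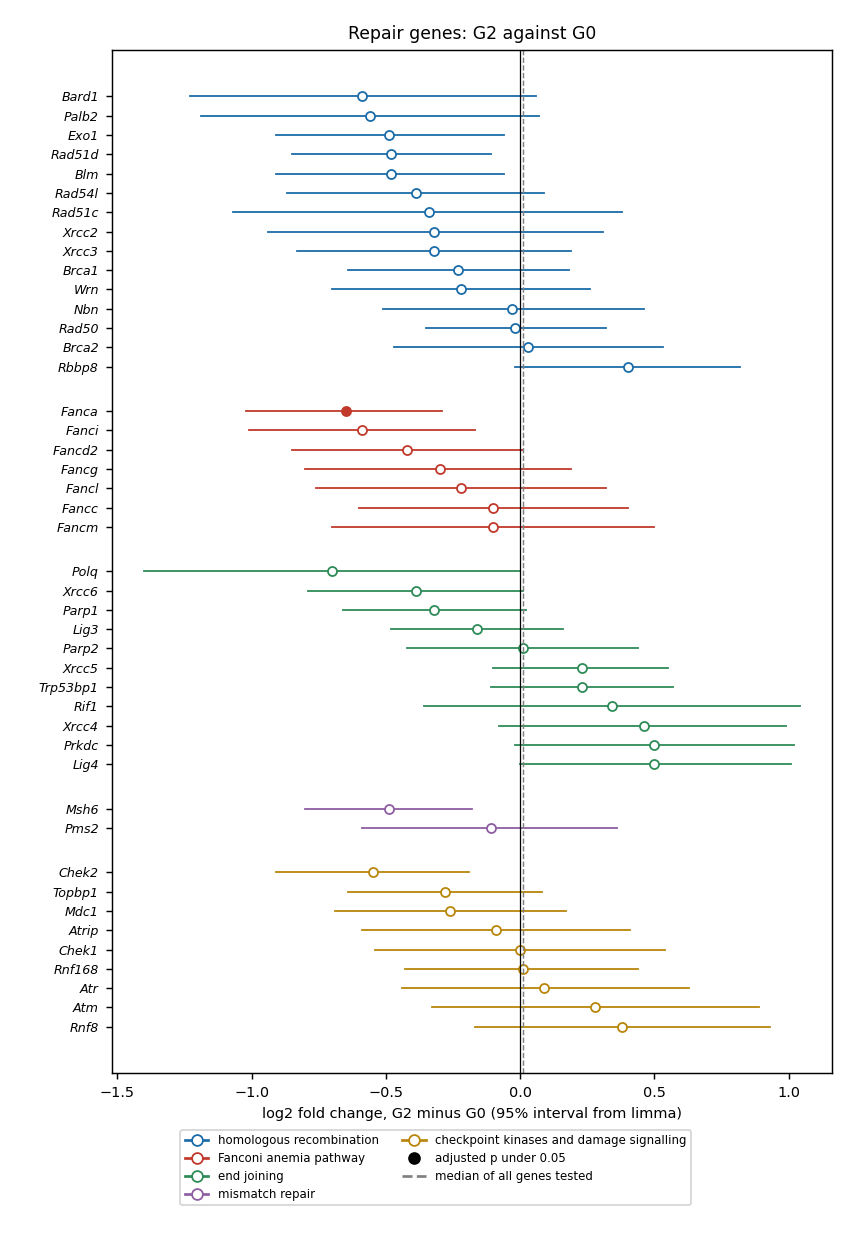
Log2 fold change of G2 minus G0 for each repair gene with its 95% interval from limma, coloured by division; the filled point is the gene past the adjusted threshold (Fanca) and the dashed line is the median of all genes tested (0.01). All 7 Fanconi genes lie left of 0, and end joining genes lie on both sides, from -0.70 for Polq to 0.50 for Lig4 and Prkdc.

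In end joining 0 of 11 genes passed by limma. An unadjusted p under 0.05 was found for 2, Polq and Lig4 (against 26.8% of all genes). The division had a median log2 fold change of 0.23, with 7 genes above 0 and 4 below (6 and 5 with TMM scaling, which turned Parp2). The median was 0.08 without G2 line 157, 0.10 without G0 line 179, and 0.05 with the length correction given further on. The 3 highest fold changes were those of Lig4, Prkdc and Xrcc4, all of the classical branch, while Xrcc6 of the same branch was the second lowest of the division. Lig4, the ligase that seals the break, had 238.0 and 210.2 normalized counts in G2 and 165.9 and 149.3 in G0 (log2 fold change 0.50, SE 0.21, adjusted p = 0.186). Xrcc4, its scaffold, had 227.9 and 181.8 in G2 and 148.3 and 147.3 in G0 (0.46, 95% interval -0.08 to 0.99). Prkdc, the DNA-dependent protein kinase recruited by the Ku ring, had 551.6 and 434.0 in G2 and 401.6 and 297.6 in G0 (0.50, SE 0.22, adjusted p = 0.199). All 3 were higher in both G2 lines, but the lower G2 value of Prkdc lay close to the higher G0 value.

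The subunits of the Ku ring, which slides onto broken ends, lay on opposite sides. Xrcc5 had 910.7 and 952.0 normalized counts in G2 and 809.1 and 781.1 in G0 (log2 fold change 0.23, interval -0.10 to 0.55). Xrcc6 had 508.3 and 593.3 in G2 and 662.8 and 784.2 in G0 (-0.39, SE 0.17, adjusted p = 0.193). Per kilobase of exon the ratio of Xrcc5 to Xrcc6 was 3.14 and 2.81 in G2 and 2.14 and 1.75 in G0, without overlap. Neither gene passed and the difference between them was not tested. Among the other partner ratios formed, those of Palb2 to Brca2, Chek2 to Chek1 and Fanci to Fancd2 did not overlap between groups either. The ratios of Bard1 to Brca1, Atrip to Atr, Lig4 to Xrcc4 and Nbn to Rad50 overlapped.

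Trp53bp1 and Rif1 shield broken ends from resection. Trp53bp1 had 786.6 and 841.6 normalized counts in G2 and 672.6 and 714.1 in G0 (log2 fold change 0.23, interval -0.11 to 0.57), without overlap. Rif1 had 817.9 and 555.2 in G2 and 697.2 and 405.3 in G0, with more distance between lines of a group than between the group means. Genes of alternative end joining lay at or below 0.01. Polq, the polymerase of microhomology-mediated joining, had 177.5 and 107.5 in G2 and 250.4 and 202.1 in G0 (-0.70, SE 0.29, adjusted p = 0.186) and did not pass. The G2 lines were 0.72 apart on the log2 scale, and the log2 fold change of Polq was -0.34 without G2 line 236 and -1.06 without G2 line 157. Parp1, which marks breaks with poly(ADP-ribose), had 1832 and 1871 in G2 and 2109 and 2542 in G0 (-0.32, interval -0.66 to 0.02). Lig3 had 1204 and 1254 in G2 and 1451 and 1294 in G0, and Parp2 overlapped at 324.7 and 359.7 in G2 and 319.1 and 361.6 in G0. Summed over all 11 genes the division was nearly level, at 7580 and 7360 in G2 and 7687 and 7678 in G0.

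Of the 2 mismatch repair genes 0 passed by limma, with 1 at an unadjusted p under 0.05 (against 26.8% of all genes). Msh6, a subunit of the sensor of base mismatches, had 1154 and 1160 normalized counts in G2 and 1677 and 1576 in G0, with little spread in either group. The difference on the log2 scale was -0.49 (SE 0.13, limma adjusted p = 0.0577, unadjusted p = 0.00685). Pms2, a subunit of the nuclease that follows, had 190.6 and 204.3 in G2 and 215.0 and 212.3 in G0 (-0.11, interval -0.59 to 0.36, adjusted p = 0.749).

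Among the 9 checkpoint and signalling genes 0 passed by limma, with 1 at an unadjusted p under 0.05 (against 26.8% of all genes). The groups overlapped for 7 of the 9, against 5902 of all 13981 genes tested. The gene with that unadjusted p was Chek2, the kinase activated by Atm. It had 439.7 and 431.1 normalized counts in G2 and 617.6 and 659.3 in G0 (log2 fold change -0.55, SE 0.15, limma adjusted p = 0.0662). Chek1, the corresponding kinase below Atr, had 266.2 and 232.6 in G2 and 291.6 and 213.3 in G0 (interval -0.54 to 0.54). Per kilobase of exon, Chek2 stood at 2.55 and 2.86 times Chek1 in G2 and at 3.27 and 4.77 times in G0.

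The kinases above them varied more between lines than between groups. Atm had 606.1 and 445.7 normalized counts in G2 and 534.2 and 343.3 in G0, and Atr had 448.8 and 376.3 in G2 and 463.5 and 320.0 in G0. Atrip, which brings Atr to single-stranded DNA, had 190.6 and 238.5 in G2 and 228.8 and 225.5 in G0. Topbp1, the activator of Atr, had 2011 and 1824 in G2 and 2577 and 2093 in G0 (log2 fold change -0.28, SE 0.15, adjusted p = 0.286). Topbp1 was the second gene of this division whose groups did not overlap, and the 3 others just named overlapped.

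Mdc1, Rnf8 and Rnf168 spread the damage mark over chromatin. Mdc1, the scaffold, had 2557 and 1819 normalized counts in G2 and 2534 and 2642 in G0, with G2 line 157 between the G0 lines and line 236 well below (log2 fold change -0.26, SE 0.18, adjusted p = 0.391). The ubiquitin ligase gene Rnf8 had 288.4 and 395.9 in G2 and 230.7 and 290.5 in G0 (0.38, SE 0.23, adjusted p = 0.332). Rnf168, the ligase that follows Rnf8, had 522.4 and 496.6 in G2 and 578.3 and 444.9 in G0. All 3 overlapped between groups.

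Levels differed far more between genes than between groups. On a per-kilobase scale the highest member was Xrcc5 in both G2 lines, at 356.4 and 372.6 normalized counts per kilobase of exon, and Parp1 in both G0 lines, at 398.5 and 480.2. Msh6 stood at 265.5 and 267.0 in G2 and 385.9 and 362.5 in G0. Among the lowest, Rad51c had 15.0 and 11.4 per kilobase in G2 and 15.5 and 17.8 in G0, and Brca2 had 15.4 and 14.9 in G2 and 16.3 and 13.5 in G0. These levels rest on the summed length of all annotated exons of a gene, which for members ran from 2533 to 23629 bases.

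Differences between lines of the same group were large for several long transcripts and were measured for all members. In 23 of the 44 genes the gap between the group means, on the log2 scale, was larger than the gap within either group. The gap between the G0 lines exceeded it in 15 genes and the gap between the G2 lines in 17. These counts were not made over all genes, so they cannot be called particular to the repair genes. The widest gap within G0 was that of Rif1, at 0.78 on the log2 scale, followed by Atm at 0.64, Bard1 at 0.62 and Atr at 0.53, each higher in line 75 than in line 179. Across the 44 genes, which share libraries and are not independent, the difference between G0 lines had a Spearman rho of 0.42 with exon length, and the difference between G2 lines one of 0.15. The same rho was 0.39 and 0.26 over 8855 genes with means in the range of the members. For the fold change of G2 against G0 it was 0.21 over the members and 0.21 over those genes. With each library's trend on length removed, a setting added after the data were seen, 3 members passed by limma, namely Fanca (adjusted p = 0.0123), Blm and Msh6, all lower in G2. Under that setting 1803 of all 13623 genes tested passed. Beyond that setting, the part of transcript length in the single differences was not tested.

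**Figure D3:**
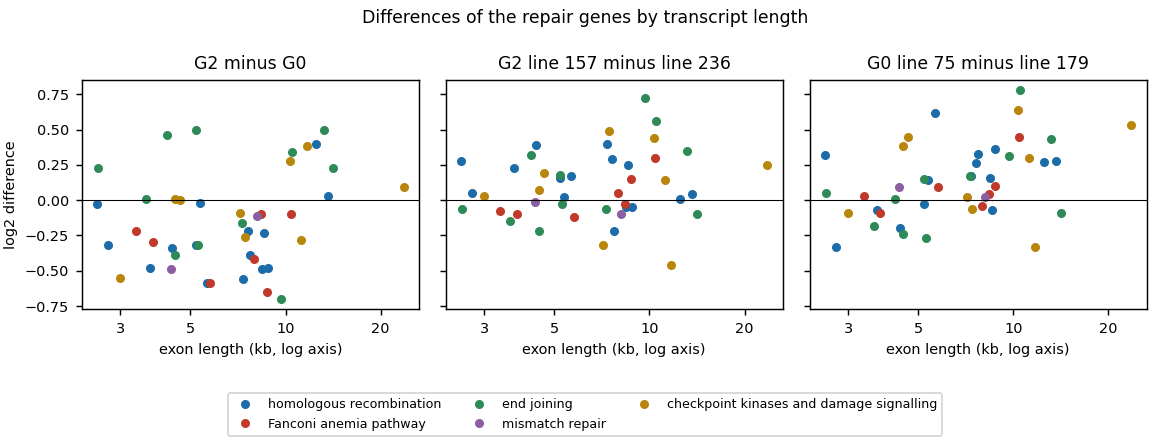
Log2 difference of each repair gene against its exon length in kilobases (log axis), for G2 minus G0, for the 2 G2 lines and for the 2 G0 lines, coloured by division. The difference between G0 lines climbs with length (Spearman rho 0.42 over 44 genes), with Rif1 highest at 0.78.

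A list of 50 further repair genes, written from textbook knowledge, was examined beside the 44. Of the 50, 3 fell (against 4.56% of all genes) and 0 rose (against 5.93%). An unadjusted p under 0.05 by limma was found for 13 (against 26.8% of all genes). The median log2 fold change was -0.30, and both G2 lines lay below both G0 lines for 31 (against 28.6% of all genes) and above for 4 (against 29.2%). The 3 that fell were Timeless, a component of the fork protection complex, Lig1, the replicative ligase, and Rpa2, a subunit of the protein that coats single-stranded DNA. Timeless fell 1.95-fold, to 296.5 and 349.0 normalized counts in G2, against 596.0 and 663.3 in G0 (limma adjusted p = 0.0173). Lig1 fell 1.71-fold (adjusted p = 0.0207) and Rpa2 1.83-fold (adjusted p = 0.0248). Fen1, the flap endonuclease, had 595.0 and 660.8 in G2 and 886.7 and 937.6 in G0 and did not pass (adjusted p = 0.0624). All of these act at replication forks as well as in repair.

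Replication and division genes lay on the same side as most repair genes and further from 0. Of 30 such genes 17 fell (against 4.56% of all genes) and 0 rose (against 5.93%), with a median of -0.60, and they summed to 51673 and 46609 normalized counts in G2 and to 71460 and 71963 in G0. Both G2 lines lay below both G0 lines for 27 of the 30 (against 28.6% of all genes). Among those with the smallest p were Mcm3, of the replicative helicase, and Cdt1, which loads it, down 1.73-fold and 1.91-fold (adjusted p = 0.0110 and 0.0113). The part of these genes in the values of the repair genes was not tested.

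Genes switched on by p53, the transcription factor that the checkpoint kinases stabilize, were mixed. Of 18 p53 target genes 3 rose (against 5.93% of all genes) and 0 fell (against 4.56%). The groups overlapped for 10, against 5902 of all 13981 genes tested. The median log2 fold change was 0.16, with 4 genes below 0, against 6843 of all genes tested. Pmaip1, which promotes apoptosis, rose 4.17-fold, to 1416 and 1430 normalized counts in G2, against 433.0 and 249.9 in G0 (limma adjusted p = 0.00427). Trp53inp1 rose 2.43-fold (adjusted p = 0.0482, or 0.0559 with libraries scaled to their totals and 0.0544 with a pseudocount of 0.5) and the kinase gene Plk2 1.5-fold (adjusted p = 0.0306). The cell cycle inhibitor Cdkn1a, chosen after its values were seen, had 7758 and 6076 in G2 and 8294 and 7933 in G0 and did not pass (adjusted p = 0.382). Of the 8 genes named as passing in the 3 related lists, none passed with no filter on low values or without the intensity trend. With any 1 of the 4 lines left out their fold changes kept their signs. Such fits leave 1 line in a group and cannot decide whether a call rests on 1 line.

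**Figure D4:**
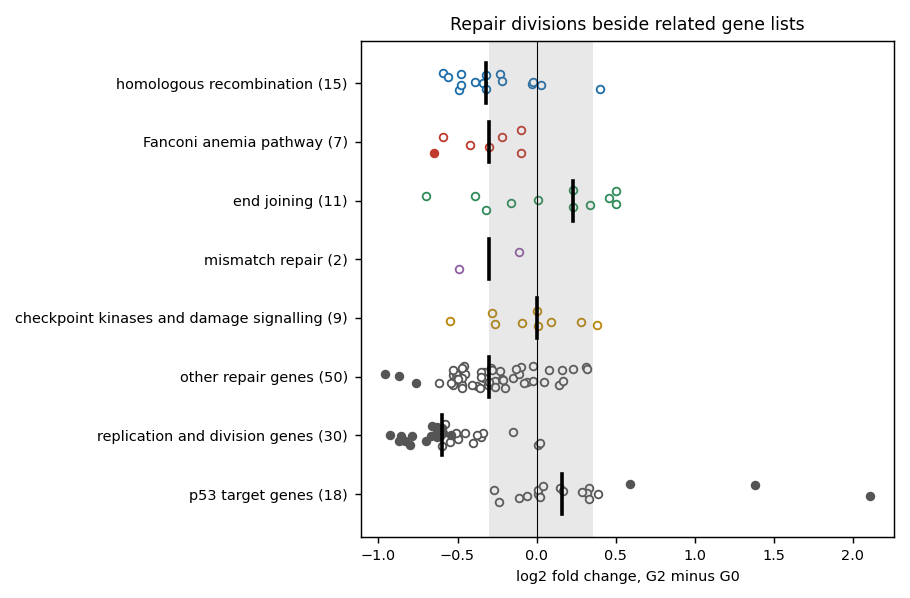
Log2 fold change of G2 minus G0 for single genes of the 5 repair divisions and 3 related lists, with gene numbers in brackets; filled points passed the adjusted threshold, black bars are medians, and the grey band is the interquartile range of all genes tested (-0.30 to 0.36). The medians run from -0.60 for replication and division genes to 0.23 for end joining.

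Several repair genes start back to back with another gene, so that 1 stretch of DNA lies upstream of both. In the GENCODE annotation 14 of the 44 had a protein-coding gene starting on the opposite strand within 1000 bases upstream or 200 downstream of their own start, and 12 of these neighbours were tested. The fold changes had the same sign in 7 pairs and opposite signs in 5, and 0 of the 12 neighbours passed by limma. The widest split, between Rad51c and Tex14, rested on few counts: Tex14 had 1.0 and 2.9 normalized counts in G2 and 0.0 and 2.0 in G0 (log2 fold change 0.69, 95% interval -1.44 to 2.82). The next was on chromosome 16, where Prkdc and Mcm4, of the replicative helicase, start 466 bases apart. Mcm4 had 1987 and 1919 normalized counts in G2 and 2666 and 2326 in G0 (log2 fold change -0.35, 95% interval -0.67 to -0.03, adjusted p = 0.153), while Prkdc stood at 0.50 as given above. Both G2 lines thus lay below G0 for Mcm4 and above G0 for Prkdc, and the difference between the genes was not tested.

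Fancd2 starts 30 bases from Emc3, a subunit of a membrane insertase, which had 1463 and 1544 normalized counts in G2 and 1438 and 1408 in G0 (log2 fold change 0.08, interval -0.22 to 0.38). Brca1 starts 194 bases from Nbr1, an autophagy receptor gene, which had 2084 and 2372 in G2 and 1848 and 1878 in G0 (0.25, interval -0.06 to 0.57). Chek2 starts 202 bases from Hscb, which serves iron-sulfur cluster assembly and had 156.3 and 167.1 in G2 and 170.9 and 201.1 in G0 (-0.20, interval -0.72 to 0.32). Lig4 starts 21 bases from Abhd13, at 727.1 and 696.0 in G2 and 733.5 and 557.7 in G0 (0.15, interval -0.27 to 0.57). The 95% intervals of Prkdc (-0.02 to 1.02) and Mcm4 (-0.67 to -0.03) barely missed each other, and those of the other pairs overlapped. Neither Prkdc nor Mcm4 passed, and a comparison of intervals is not a test of their difference. Because the strand setting of the counting is not given in the sources used here, reads where 2 such genes overlap cannot be assigned to one of them with certainty.

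**Figure D5:**
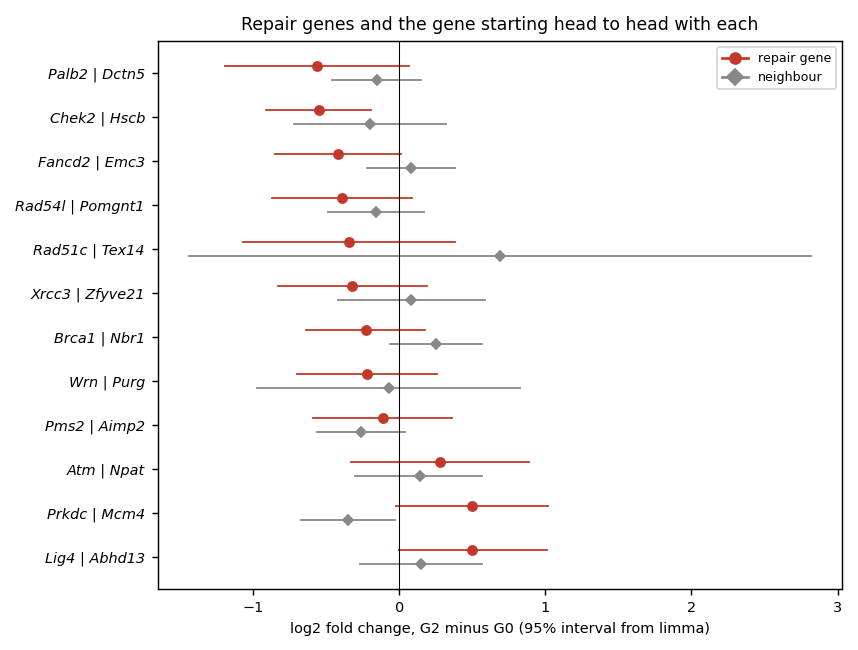
Log2 fold change of G2 minus G0 with 95% intervals from limma for 12 repair genes (circles) and the gene that starts head to head with each (diamonds), sorted by the repair gene's value. Prkdc and Mcm4 lie on opposite sides of 0, at 0.50 and -0.35.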

How the data were processed

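The authors deposited 1 table of log2-scale values for 16857 genes in 4 libraries. The submitters' processing notes name HISAT2 2.1.0, StringTie 2.1.1, DESeq2 1.32.0 and build mm10; no source used here names the annotation or the strand setting. All 4 libraries share a lowest value of 6.508, as a variance-stabilizing transformation gives to a count of 0. Inverting it with that floor and 1 factor per library (0.9844 to 1.0231) returned whole numbers for 100% of values within 0.001. StringTie estimates coverage, so these can be rounded estimates.

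Log2(normalized count + 1) was tested two-sided with limma 3.58.1 (R 4.3.3; eBayes, intensity trend). Genes whose mean reached 1 entered, and p-values were adjusted over all 13981 of them (threshold 0.05). The plan had named normalized values or counts and not this scale, and no count model was run. A fold change in words is the ratio of mean normalized counts, and log2 values understate the change of low genes. Values differed between lines of a group far beyond sampling noise (chi-square per gene 25.4 in G2 and 34.4 in G0). Exon lengths and positions came from GENCODE M21 (GRCm38), with 44 of 44 members matched, and promoters from RefSeq (GRCm38.p6), with 34 matched. Alternatives were TMM and library total scaling, pseudocounts of 0.5 and 5, other filters, the deposited scale, no intensity trend, the replicate block and leaving out each line. The tests were checked on simulated data with a fixed spread and with fold changes larger than that of any member. That check does not cover changes of the members' size. Members and lists were chosen with earlier results of these data known. Full values are given for each member past the threshold and for up to 4 members of smallest p in each division, and up to 4 genes of each related list are named.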

Additional observations from a re-analysis of the deposited data

How the results depend on the processing

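The median log2 fold change of the repair genes stayed below 0 in all 14 alternatives, from -0.25 to -0.12, with 28 to 36 of the 44 below 0, and 0 of the 18 members given with full statistics changed sign. Among the other 26, 2 to 5 changed sign with TMM or library total scaling, the length correction or a line left out (in 1 setting or more Brca2, Rad50, Nbn, Fancm, Parp2, Rif1, Atm, Atr, Atrip, Chek1 and Rnf168). The 1 repair gene that fell, Fanca, missed the threshold (0 genes fell) with scaling to library totals, with no filter on low values and without the intensity trend, where 7, 10 and 8 repair genes had an unadjusted p under 0.05 by limma. Blm and Msh6 passed beside it with the length correction (3 fell, with 1803 of all 13623 genes tested passing), a setting chosen after seeing the data. With 1 line left out, 0 repair genes fell in any of the 4 limma fits (3 to 8 at an unadjusted p under 0.05), and the count over all genes was 0 to 2. Over all genes, 225 passed with no filter and 623 without the intensity trend, against 1467. With the replicate number as a block, 3503 genes passed, with 7 repair genes lower and 1 higher, and these were Rad51d, Blm, Fanca, Fanci, Polq, Msh6, Chek2 and, higher, Prkdc. No label says whether same-numbered lines were handled together. Deviations of same-numbered lines correlated at 0.109 over 13981 genes, from 2 pairs, which cannot decide it. Over 8855 genes the difference of replicate 1 minus replicate 2 had a Spearman rho with exon length of 0.39 in G0 and 0.26 in G2. The causes of these shifts were not tested, except that leaving out a line leaves its group with 1, assumed to vary like the other.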
